A study of Mus musculus with 12 samples.

Results

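The expression of 10 marker genes of cortical interneurons was followed through 12 stranded RNA-Seq libraries of mouse somatosensory cortex. The genes were Lhx6, Dlx1, Dlx2, Dlx5, Sst, Npy, Vip, Reln, Htr3a and Pvalb (chosen by name), 10 of the 24452 gene symbols in the files. The counts of all RefSeq transcripts of a symbol were summed. All mice were male C57BL/6 pups at postnatal day 7, and the cortex was taken 8 h after the second intraperitoneal injection. The 4 groups were WT mice given saline, WT mice given ethanol (EtOH), p53 KO mice given saline and p53 KO mice given ethanol, with 3 libraries in each. The KO mice carry the Trp53tm1Tyj allele, a targeted disruption of Trp53, in every cell of the body. The 3 libraries of a group were made from separate RNA samples, and they are called here by their library numbers.

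Cortical interneurons are the local inhibitory neurons of the cortex and release GABA. Most are born in the ganglionic eminences of the ventral forebrain, where the Dlx transcription factors are expressed, and migrate into the cortex before birth. Lhx6 is kept by the cells of the medial eminence, which become the parvalbumin (Pvalb) and somatostatin (Sst) classes, while cells of the caudal eminence give rise to Vip, many Reln and most Htr3a interneurons. Parvalbumin appears late, during the second postnatal week and after, and the Sst class appears early.

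At P7 the neuropeptide genes Sst and Npy were by far the most abundant of these markers and Pvalb was the least abundant. RPKM, which scales counts to transcript length, was used to compare levels between genes. The median RPKM over the 12 libraries was 277 for Sst (range 62.5 to 499) and 121 for Npy (range 26.0 to 365). It was 14.2 for Vip, 13.8 for Dlx1, 10.3 for Reln and 7.55 for Lhx6. It was 3.1 for Dlx2, 2.05 for Dlx5, 1.54 for Htr3a and 0.695 for Pvalb. Sst exceeded Npy in 10 of 12 libraries, and Npy exceeded Vip in 12 of 12. Vip and Dlx1, which are neighbours in this order, could not be separated, since Vip was the higher in 6 of 12 libraries. Dlx5 was also above Htr3a in only 6 of 12.

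The 3 neuropeptide genes head this order, and the 250 bases before the start of each are shown because they differ in the cyclic AMP response element (CRE), the site through which CREB is known to drive Sst and Vip. The sequences are those of RefSeq on GRCm38.p6, 5′ to 3′ on the strand of the gene. Capitals mark TGACGTC, a CRE short of its last base, searched on both strands. Sst lies at chr16:23890845-23891094 on the minus strand, Npy at chr6:49822460-49822709 on the plus strand and Vip at chr10:5638968-5639217 on the plus strand.
Sst: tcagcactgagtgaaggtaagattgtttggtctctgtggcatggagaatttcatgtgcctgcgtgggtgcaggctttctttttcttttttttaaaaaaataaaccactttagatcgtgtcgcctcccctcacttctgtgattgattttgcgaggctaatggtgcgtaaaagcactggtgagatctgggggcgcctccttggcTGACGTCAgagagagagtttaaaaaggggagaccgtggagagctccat
Npy: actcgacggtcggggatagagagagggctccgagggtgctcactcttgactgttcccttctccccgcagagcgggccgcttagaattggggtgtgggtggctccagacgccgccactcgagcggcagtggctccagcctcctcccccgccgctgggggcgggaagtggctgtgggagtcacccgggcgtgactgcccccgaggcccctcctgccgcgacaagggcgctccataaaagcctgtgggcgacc
Vip: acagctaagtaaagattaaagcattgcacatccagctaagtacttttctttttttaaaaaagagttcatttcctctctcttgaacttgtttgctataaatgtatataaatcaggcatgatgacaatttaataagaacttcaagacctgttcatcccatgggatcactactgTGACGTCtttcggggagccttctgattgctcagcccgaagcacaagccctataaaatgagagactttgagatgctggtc

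The full palindrome TGACGTCA, which contains the shorter motif, is present in the Sst window from 48 to 41 bases before the start. It occurs in 1.55% of all 32851 windows of this length. The Vip window holds the shorter motif 79 to 73 bases before the start, and this motif occurs in 2.78% of windows. Neither is in the Npy window. Windows were given for 8 of the 10 genes, and among them the full CRE was found in Sst alone.

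Total counts ranged from 719735 to 17066392 per library, and 2 libraries had far lower totals than the others, WT saline library 3 and KO EtOH library 12. Their names are also the only ones that open with the letter L. The targeted gene, Trp53, was at 14.8 ± 11.3 CPM, counts scaled to the TMM-normalized library size, in WT saline and 16.8 ± 9.35 in KO saline (SD, n = 3 per group). It was at 14.0 ± 6.43 in WT EtOH and 26.7 ± 2.91 in KO EtOH (SD, n = 3 per group). The study describes transcripts from outside the deleted part in the KO line, so this sum does not test the genotype labels. WT EtOH library 4 stood apart in its other cell markers. It had the highest count of all 12 libraries for 6 of 6 thalamic markers (summed CPM 1122, against 43.5 to 188 in the others) and for 5 of 5 Cajal-Retzius cell markers (92.7 against 1.54 to 8.37). Its 9 cortical projection neuron markers had the lowest sum (381 against 753 to 1397), although none of them was at 0 in any library. The sum of 5 choroid plexus markers was also highest in WT EtOH library 4 (5006). It was high in 2 KO libraries too, KO saline library 9 (2257) and KO EtOH library 18 (2212), against 1.67 to 411 in the rest. WT EtOH library 14 had the highest sum of 9 striatal markers (1141, against 187 to 649). The 649 was reached in WT saline library 3, where Foxp1 alone was at 501 CPM. The part of these markers in the results was not tested, and in bulk tissue fewer interneurons and less RNA per interneuron cannot be told apart.

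**Figure D1:**
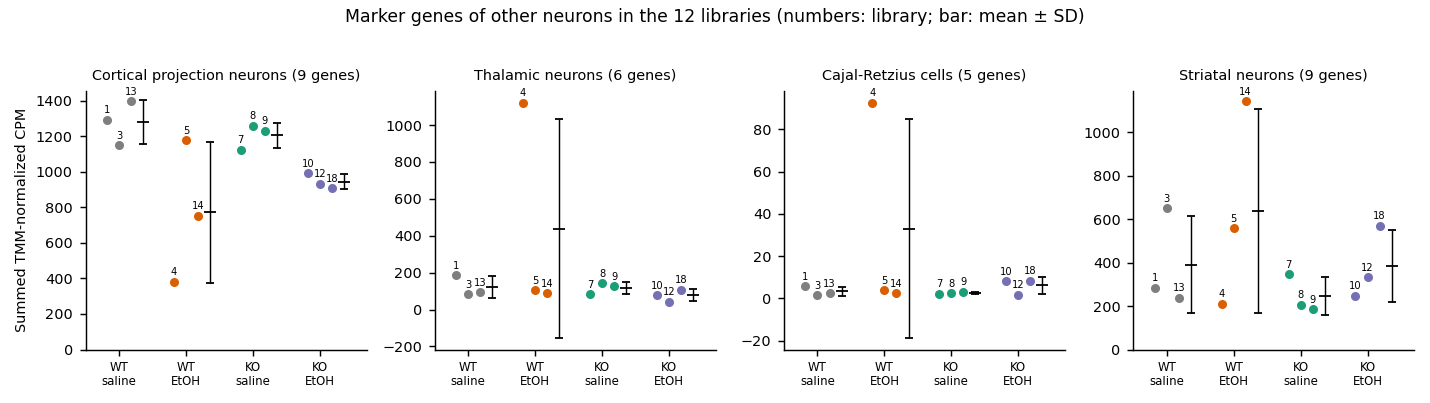
Summed TMM-normalized CPM of marker genes of cortical projection neurons, thalamic neurons, Cajal-Retzius cells and striatal neurons, by group. Each point is a library with its number, and the bar is the mean ± SD (n = 3). WT EtOH library 4 lies far above the others for thalamic (1122) and Cajal-Retzius (92.7) markers and lowest for projection neuron markers (381), and WT EtOH library 14 is highest for striatal markers (1141).

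TMM normalization, used for all CPM values, scales each library by 1 factor for its depth and the composition of its counts. The factor was 0.564 in WT saline library 1 and between 0.832 and 1.23 in the others, and a lower factor raises CPM. WT saline library 1 was the highest of the 12 for Vip, Reln and Pvalb. It also had the highest sum of endothelium and meninges markers (593 CPM, against 63.1 to 314). It was not among the 3 libraries left out together below. Differences between libraries in cell type markers and in the trend with transcript length remain after TMM normalization. Lhx6 encodes the LIM homeodomain factor of medial eminence interneurons. It was at 8.82, 61.7 and 14.5 CPM in WT saline libraries 1, 3 and 13 and at 8.55, 36.1 and 24.2 CPM in WT EtOH libraries 4, 5 and 14. It was at 32.0, 29.6 and 29.1 CPM in KO saline libraries 7, 8 and 9 and at 27.1, 36.8 and 32.3 CPM in KO EtOH libraries 10, 12 and 18. The KO groups were therefore narrow (30.2 ± 1.55 and 32.1 ± 4.85 CPM, SD, n = 3), whereas the WT groups spanned most of the whole range and all 4 groups overlapped.

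Dlx1, Dlx2 and Dlx5 encode homeodomain factors that specify GABAergic neurons. Dlx1 was at 14.3, 44.2 and 34.4 CPM in WT saline, 64.9, 35.3 and 58.5 CPM in WT EtOH, 43.9, 38.1 and 47.8 CPM in KO saline, and 59.8, 3.34 and 63.7 CPM in KO EtOH (libraries in the order given above). The single low value in KO EtOH came from library 12, where 2 reads were counted. Apart from it, the KO EtOH values were above all of KO saline. Dlx2 was between 4.68 and 14.6 CPM in all 12 libraries, and its highest value was in WT EtOH library 4. Dlx5 was at or under 7.71 CPM everywhere. It had 0 counts in KO EtOH library 12, where a count of 0 allows up to 5.01 CPM (3 counts), more than its level in 9 of the other libraries.

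Sst encodes somatostatin, the peptide of an interneuron class that is present early. It was at 99.95, 242 and 64.6 CPM in WT saline and at 34.1, 202 and 136 CPM in WT EtOH. It was at 122, 67.2 and 137 CPM in KO saline and at 161, 704 and 177 CPM in KO EtOH. All 3 KO EtOH values lay above all 3 KO saline values, and on the CPM scale library 12 was far above every other library. On the deposited RPKM it stood less far apart. KO EtOH libraries 10, 12 and 18 were there at 384.9, 499.5 and 417.8, and WT saline library 3 was at 355.7. Npy encodes neuropeptide Y, made by many Sst cells and by neurogliaform cells. It was at 87.8, 137 and 37.7 CPM in WT saline, 14.7, 68.3 and 188 CPM in WT EtOH, 93.9, 67.9 and 39.2 CPM in KO saline, and 70.8, 124 and 92.4 CPM in KO EtOH. The lowest and the highest of the 12 values were both in WT EtOH, in library 4 and in library 14, which was also highest for striatal markers.

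Vip encodes vasoactive intestinal peptide, the marker of a caudal eminence class that mainly inhibits other interneurons. It was at 41.2, 7.20 and 26.4 CPM in WT saline, 1.30, 33.9 and 25.5 CPM in WT EtOH, 26.1, 22.3 and 23.3 CPM in KO saline, and 20.4, 38.4 and 16.9 CPM in KO EtOH. WT EtOH library 4 was the lowest of the 12, as it was for Lhx6, Sst and Npy. The same library was the highest for Dlx1, Dlx2, Gad1, which encodes a GABA-synthesizing enzyme, and Slc32a1, which encodes the vesicular GABA transporter. Reln encodes reelin, the secreted glycoprotein of Cajal-Retzius cells and of superficial interneurons. It was at 217, 90.5 and 105 CPM in WT saline, 126, 124 and 203 CPM in WT EtOH, 147, 175 and 143 CPM in KO saline, and 147, 65.2 and 153 CPM in KO EtOH. WT EtOH library 4, which had the highest Cajal-Retzius markers, ranked 5 of 12 from the lowest in Reln.

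Htr3a encodes a subunit of the ionotropic serotonin receptor, carried by most caudal eminence interneurons. It ranged from 0 to 8.39 CPM, with 0 counts in KO EtOH library 12, where a count of 0 allows up to 5.01 CPM. Pvalb encodes the calcium-binding protein of fast-spiking interneurons. It had between 1 and 28 counts in a library and 94 in all 12. Pvalb was at 2.02, 0.514 and 0.966 CPM in WT saline (counts 11, 1 and 13) and at 1.13, 0.278 and 0.703 CPM in WT EtOH. It was at 0.147, 0.293 and 0.263 CPM in KO saline (counts 2, 5 and 3) and at 0.237, 1.67 and 1.78 CPM in KO EtOH (counts 3, 1 and 28). All 3 KO saline values lay below all 3 WT saline values, but 1 of the WT saline values and 1 of the KO EtOH values each rested on a single read.

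**Figure D2:**
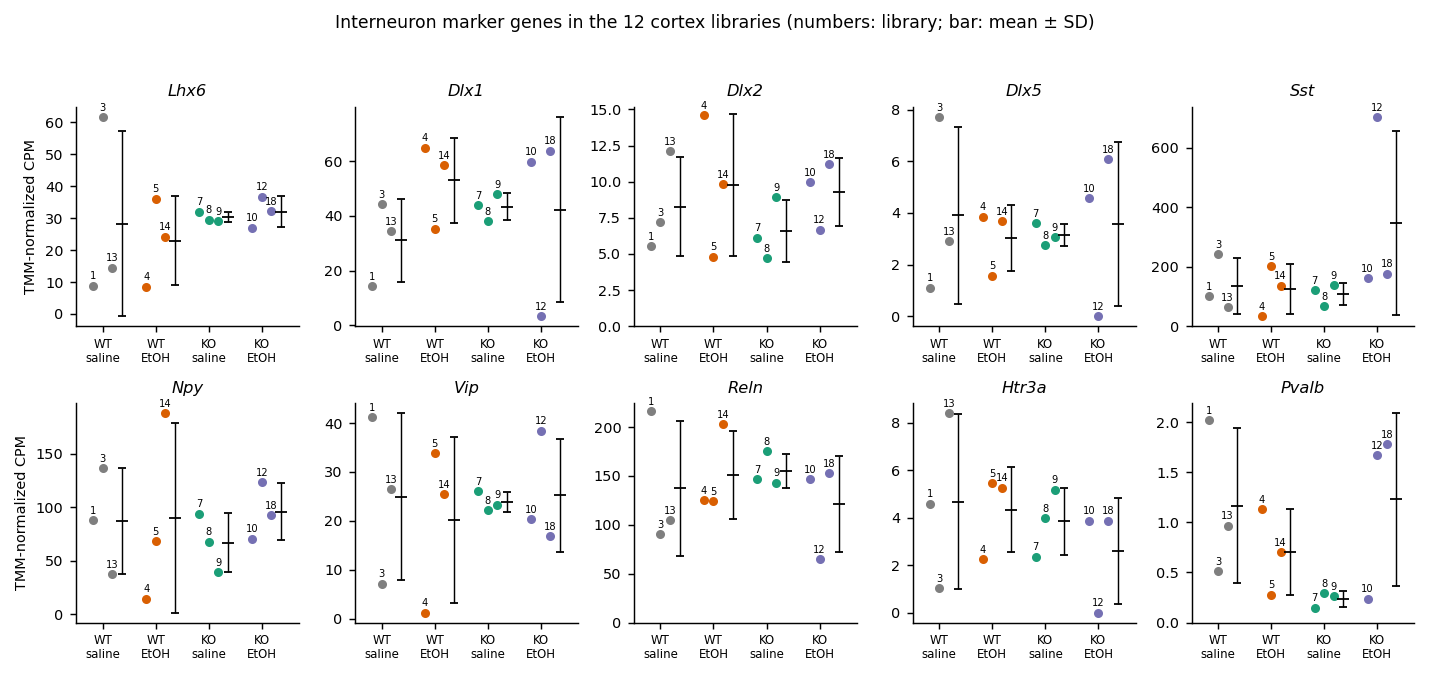
TMM-normalized CPM of the 10 interneuron marker genes in the 12 libraries, by group. Each point is a library with its number, and the bar is the mean ± SD (n = 3). WT EtOH library 4 is lowest for Lhx6, Sst, Npy and Vip, and KO EtOH library 12 is highest for Sst (704 CPM) and lowest for Dlx1 (3.34 CPM), Dlx5, Reln and Htr3a.

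The first question was whether ethanol changed these genes in WT mice. It was asked with the edgeR quasi-likelihood test over all 14739 genes that passed the filter on low counts, among them all 10 markers. None of the 10 had an unadjusted p under 0.05 in WT EtOH versus WT saline, where 18.3% of all genes tested did. In DESeq2 the number was also 0 of 10. None had an adjusted p under 0.05, against 0.0746% of all genes, and for none of them did the 2 groups fail to overlap, against 19.5% of all genes. Of the 10, 4 were higher and 6 lower after ethanol, with a median log2 fold change of -0.17 (0.06 over all genes). The largest in size was that of Dlx1, 0.78 ± 0.62 (SE, adjusted p = 0.502 in edgeR). The log2 fold change was -0.26 ± 0.62 for Lhx6, -0.12 ± 0.69 for Sst, 0.05 ± 0.68 for Npy, -0.33 ± 0.79 for Vip and 0.13 ± 0.42 for Reln (SE), each smaller than its standard error.

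The WT result depended on the libraries that stood apart. Without WT EtOH library 4, the log2 fold change of ethanol over saline turned positive for Lhx6 (0.14), Sst (0.32) and Vip (0.21), and 0 of 10 had an unadjusted p under 0.05 (9.5% of all genes). Without the 2 L-named libraries it was 0.90 for Lhx6 and 0.52 for Sst, and 1 of 10, Dlx1, had an unadjusted p under 0.05 (1.04 ± 0.39, SE; adjusted p = 0.0759 in edgeR), against 37.3% of all genes. With all 3 of these libraries left out, Lhx6 was higher after ethanol (1.33 ± 0.37, SE; adjusted p = 0.0378 in edgeR), as 1 of 10 with an adjusted p under 0.05 against 13.2% of all genes. Sst had a log2 fold change of 1.01 ± 0.40 (SE, adjusted p = 0.109 in edgeR) in that fit. Only 2 WT libraries of each treatment enter it, and its libraries were chosen after their values were seen. The WT libraries left out held the highest WT saline and the lowest WT EtOH values of Lhx6 (61.7 and 8.55 CPM) and of Sst (242 and 34.1 CPM). Their removal could only raise these fold changes, so this fit cannot decide the direction.

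**Figure D3:**
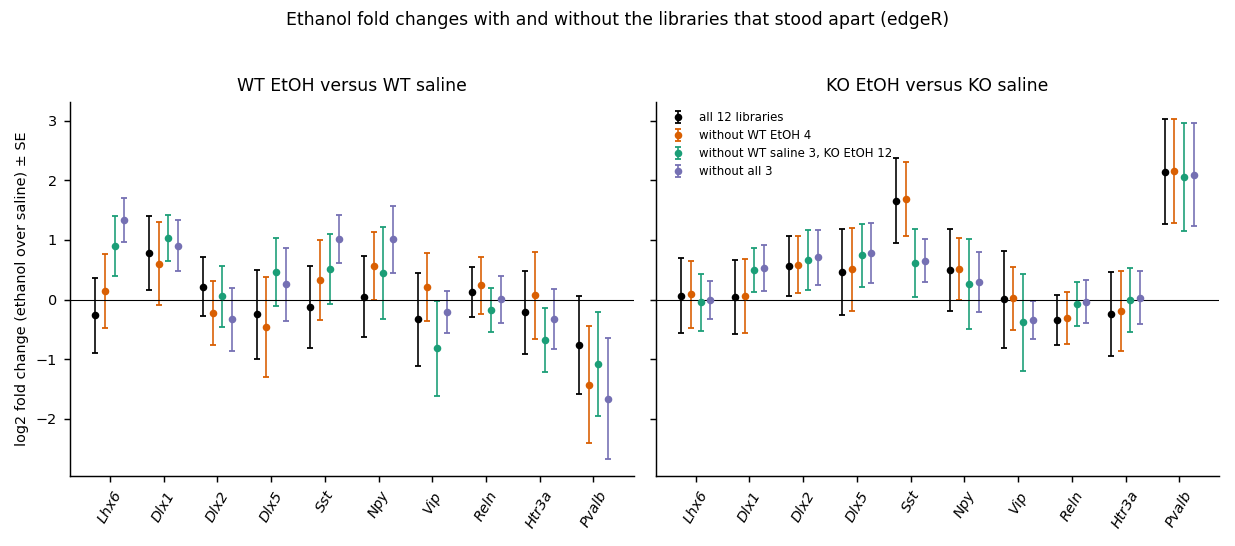
Log2 fold change of ethanol over saline ± SE (edgeR) for the 10 genes in WT mice (left) and KO mice (right), with all 12 libraries and without those that stood apart. In WT mice Lhx6 moves from -0.26 to 1.33 when the 3 libraries are left out, and in KO mice Sst falls from 1.66 to 0.61 without the L-named libraries, whereas Pvalb stays near 2.1.

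The same question was asked in KO mice. Here 2 of 10 genes, Sst and Pvalb, had an unadjusted p under 0.05, where 3.15% of all genes tested did. None had an adjusted p under 0.05, as for all genes (0.0%). The groups did not overlap for Sst alone, against 10.8% of all genes. The log2 fold change of ethanol over saline was 1.66 ± 0.71 for Sst (SE, adjusted p = 0.999 in edgeR) and 2.15 ± 0.88 for Pvalb (SE, adjusted p = 0.999 in edgeR). Of the 10 genes, 8 were higher and 2 lower, with a median log2 fold change of 0.27 (0.01 over all genes). In the edgeR fits on counts, library 12 set the size of the Sst difference. Without it the log2 fold change was 0.63 ± 0.65 (SE, adjusted p = 0.999 in edgeR), and without both L-named libraries it was 0.61 ± 0.57 (SE, adjusted p = 0.880 in edgeR), while the remaining KO EtOH values of 161 and 177 CPM were still above the highest KO saline value of 137 CPM. The Pvalb difference depended most on the 28 counts of library 18, without which it was 0.79 ± 1.27 (SE, adjusted p = 1.00 in edgeR), and without library 12 it was 2.06 ± 0.92 (SE, adjusted p = 0.999 in edgeR). Dlx1 had a log2 fold change of 0.05 ± 0.61 with all libraries and of 0.51 ± 0.43 without library 12 (SE, adjusted p = 0.999 in both edgeR fits). On the deposited RPKM, Dlx2 was the second gene whose KO groups did not overlap (3.24 to 3.71 after ethanol, 1.64 to 2.96 after saline).

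Transcript length moved with these contrasts. In KO mice the median log2 fold change of ethanol over saline was 0.67 over 945 genes under 1000 bases and -0.33 over 298 genes of 10000 bases or more, while in WT mice it was -1.11 and 0.75. Sst (721 bases), Npy (566 bases) and Pvalb (953 bases) are in the shortest class, and Reln (11699 bases) is in the longest. After each library's trend with length and GC content was removed, the log2 fold change in KO mice was 0.99 ± 0.68 for Sst (SE, adjusted p = 1.00 in edgeR) and 1.98 ± 0.85 for Pvalb (SE, adjusted p = 1.00 in edgeR). In WT mice Reln went from 0.13 to -0.89 ± 0.46 under this change (SE, adjusted p = 0.337 in edgeR).

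The genotypes were then compared after saline, a contrast that shares the WT saline libraries with the ethanol contrast of WT mice. Pvalb was the 1 gene of 10 with an unadjusted p under 0.05, where 19.6% of all genes were under it, and none had an adjusted p under 0.05 (0.0543% of all genes). Its log2 fold change of KO over WT was -2.33 ± 0.87 (SE, adjusted p = 0.191 in edgeR). It was also the 1 gene whose groups did not overlap, against 22.9% of all genes. After removal of the length and GC trends it was -1.35 ± 0.85 (SE, adjusted p = 0.443 in edgeR). Lhx6 had a log2 fold change of 0.14 ± 0.62 (SE, adjusted p = 0.923 in edgeR). Without the 3 libraries that stood apart, it was 1.33 ± 0.34 for Lhx6 (SE, adjusted p = 0.0154 in edgeR) and -2.58 ± 0.89 for Pvalb (SE, adjusted p = 0.0482 in edgeR), that is 2 of 10 with an adjusted p under 0.05 against 28.6% of all genes. WT saline is then represented by libraries 1 and 13, the pair with the lowest Lhx6 of the saline groups.

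After ethanol, 0 of 10 genes had an unadjusted p under 0.05 between KO and WT mice (3.24% of all genes in edgeR), and 0 of 10 had groups that did not overlap (12.7% of all genes). In DESeq2 1 of 10 was under it. The nearest was Sst, with a log2 fold change of KO over WT of 1.47 ± 0.70 (SE, adjusted p = 0.982 in edgeR). On the deposited RPKM the groups of Sst did not overlap (385 to 499 in KO EtOH and 62.5 to 302 in WT EtOH).

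For the 2 main effects no gene of the 10 had an unadjusted p under 0.05, in edgeR or in DESeq2, against 7.09% of all genes for Treatment and 7.67% for Genotype in edgeR. The Genotype x Treatment interaction, KO minus WT in the size of the ethanol effect, was under 0.05 for 1 of 10 genes, against 15.2% of all genes. It was 2.91 ± 1.20 on the log2 scale for Pvalb (SE, adjusted p = 0.292 in edgeR) and 1.78 ± 0.98 for Sst (SE, adjusted p = 0.404 in edgeR). The median interaction was 0.34 over the 10 genes and -0.11 over all genes. Without the 3 libraries that stood apart, the Sst interaction was -0.36 ± 0.54 (SE, adjusted p = 0.738 in edgeR).

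Other genes of interneurons were read beside these 10, as a list of 44 symbols of which 42 passed the filter (Sncg and Chrna2 did not). In WT mice 10 of 42 were higher and 4 of 42 lower after ethanol at an unadjusted p under 0.05 (18.3% of all genes in either direction). The 42 had a median log2 fold change of 0.44 (0.06 over all genes), and 0 had an adjusted p under 0.05. The fit with the length and GC trends removed was not read for this list. Gad2, which encodes a GABA-synthesizing enzyme of axon terminals, was at 24.3, 60.2 and 21.2 CPM in WT saline and at 104, 115 and 104 CPM in WT EtOH. Its groups did not overlap, and its log2 fold change was 1.64 ± 0.40 (SE, adjusted p = 0.131 in edgeR). Dlx6, the neighbour and paralog of Dlx5, had a log2 fold change of 3.42 ± 0.80 (SE, adjusted p = 0.121 in edgeR) at a low level, 0.686 ± 0.750 CPM in WT saline and 4.97 ± 1.72 CPM in WT EtOH (SD, n = 3). Striatal neurons express both genes, and 4 of 9 striatal markers (Drd2, Isl1, Rgs9 and Six3) were also higher in all 3 WT EtOH than in all 3 WT saline libraries, against 19.5% of all genes without overlap in either direction. Drd2, the dopamine D2 receptor gene, was at 0, 0.514 and 1.49 CPM in WT saline and at 7.30, 5.19 and 15.3 CPM in WT EtOH. The part of striatal markers in the Gad2 and Dlx6 differences was not tested.

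The other 4 genes with the smallest p in that contrast were Calb2 (calretinin), Prox1, Penk (enkephalin) and Tac1 (substance P). Calb2 was at 870 CPM in WT EtOH library 4 and between 8.23 and 58.9 CPM in the other 11 libraries. Prox1, a transcription factor of caudal eminence interneurons, was likewise at 68.7 CPM in library 4 and at or under 9.00 CPM elsewhere. Library 4 also had the highest thalamic (1122 CPM) and Cajal-Retzius (92.7 CPM) marker sums, and Vip was lowest in it (1.30 CPM). The part of thalamic and Cajal-Retzius markers in the Calb2 and Prox1 differences was not tested. Penk was highest in WT EtOH libraries 14 (186 CPM) and 5 (111 CPM), and Tac1 in the same libraries (125 and 59.7 CPM). Library 14 also had the highest striatal sum, and Penk and Tac1 are abundant in striatal neurons. The part of striatal markers in the Penk and Tac1 differences was not tested. Without library 4, 8 of 43 genes tested were higher and 1 lower (9.5% of all genes), and the log2 fold changes were 1.66 ± 0.45 for Gad2, 3.45 ± 0.84 for Dlx6, 0.48 ± 0.62 for Calb2 and 0.54 ± 0.79 for Prox1 (SE). Without the 3 libraries that stood apart, 13 of 43 were higher and 3 lower (32.0% of all genes), and 9 of 43 had an adjusted p under 0.05 (13.2% of all genes, edgeR). Without the 2 L-named libraries 8 of 44 did (21.5% of all genes). In that fit the log2 fold change was 2.17 ± 0.32 for Gad2 (SE, adjusted p = 0.00656 in edgeR) and 4.32 ± 0.77 for Dlx6 (SE, adjusted p = 0.00763 in edgeR).

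In KO mice 1 of 42 was higher and 1 lower after ethanol at an unadjusted p under 0.05 (3.15% of all genes). They were Penk, with a log2 fold change of 2.10 ± 0.85 (SE, adjusted p = 0.999 in edgeR), and Erbb4, which encodes the neuregulin receptor of interneurons, with -1.16 ± 0.40 (SE, adjusted p = 0.999 in edgeR). Penk was at 17.3, 5.68 and 4.74 CPM in KO saline libraries 7, 8 and 9. It was at 14.6, 60.2 and 48.3 CPM in KO EtOH libraries 10, 12 and 18. The striatal marker sum was 348, 207 and 187 CPM in these KO saline libraries and 247, 334 and 570 CPM in these KO EtOH libraries. The part of striatal markers in this Penk difference was not tested. Gad2 was at 59.3 ± 8.16 CPM in KO saline and 61.9 ± 17.1 CPM in KO EtOH (SD, n = 3). Its interaction was -1.57 ± 0.56 (SE, adjusted p = 0.258 in edgeR). Between the genotypes after saline, 2 of 42 were higher in KO mice (19.6% of all genes in either direction), Dlx6 and Kcnc2, a potassium channel of fast-spiking cells, with log2 fold changes of 2.40 ± 0.79 and 1.22 ± 0.40 (SE, adjusted p = 0.177 for both in edgeR). Without the 2 L-named libraries 8 of 44 were higher and 4 lower (39.2% of all genes), and 7 had an adjusted p under 0.05 (25.3% of all genes). Dlx6 (3.31 ± 0.77, SE; adjusted p = 0.0106), Kcnc2 (1.5 ± 0.35, SE; adjusted p = 0.0109) and Gad2 (1.32 ± 0.31, SE; adjusted p = 0.0112) were then higher in KO mice (edgeR). With all 12 libraries, after ethanol, 3 were higher and 5 lower in KO than in WT mice (3.24% of all genes in either direction). For Treatment 9 were higher and 1 lower (7.09%), for Genotype 1 and 3 (7.67%), and for the interaction 4 and 6 (15.2%), and in these fits none of the 42 had an adjusted p under 0.05 in any of the 7 contrasts (edgeR).

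The receptors and partners of the marker genes' products were a list of 15, of which 13 passed the filter (Sstr5 and Htr3b did not). At an unadjusted p under 0.05, 1 of 13 was lower in WT EtOH than in WT saline, against 18.3% of all genes in either direction. It was Npy1r, a receptor of neuropeptide Y, with a log2 fold change of -1.20 ± 0.55 (SE, adjusted p = 0.261 in edgeR). In KO mice 1 of 13 was lower after ethanol (3.15% of all genes in either direction). This was Vldlr, a reelin receptor, with -0.88 ± 0.40 (SE, adjusted p = 0.999 in edgeR). After saline 1 of 13 was higher in KO than in WT mice (19.6% of all genes in either direction). This was Npy2r, another receptor of neuropeptide Y, with 1.62 ± 0.73 (SE, adjusted p = 0.242 in edgeR). In the remaining contrasts 1 was lower for Treatment (7.09% of all genes). At the same threshold 0 of 13 passed for KO EtOH versus WT EtOH (3.24%), Genotype (7.67%) or the interaction (15.2%, edgeR). These calls did not hold in every fit. Npy1r was no longer under 0.05 without WT EtOH library 4 (-0.86 ± 0.57, SE), nor were Vldlr (-0.67 ± 0.39, SE) and Npy2r (1.24 ± 0.59, SE) without the L-named libraries. In that last fit 3 of 14 were higher and 3 lower in WT EtOH than in WT saline (37.3% of all genes), 2 of them at an adjusted p under 0.05 (21.5% of all genes, edgeR).

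Some pairs of markers varied together across libraries and others did not, given here as a description over 12 libraries that differ in depth. Pearson's r of log2 CPM was 0.94 for Dlx1 and Dlx5, which were also correlated without KO EtOH library 12 (r = 0.78) and without the 3 libraries that stood apart (r = 0.90, 9 libraries). It was 0.70 for Lhx6 and Sst and 0.69 for Sst and Npy, and in the 9 libraries it was 0.52 and 0.32. Dlx5 and Vip went in opposite directions in the 9 libraries (r = -0.94, and -0.46 over 12). Among all genes tested, the pattern most like that of Lhx6 was that of Nrgn (r = 0.93 over 12 libraries), which encodes neurogranin of projection neurons. That most like Sst was Rps4l (r = 0.93), and that most like Dlx1 was Tulp3 (r = 0.99).

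**Figure D4:**
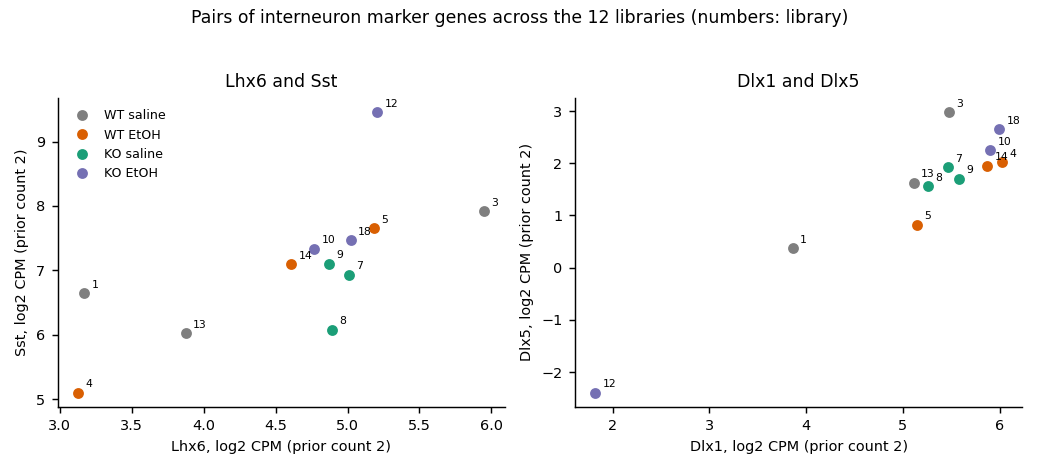
Log2 CPM of Sst against Lhx6 (left) and of Dlx5 against Dlx1 (right), a point per library with its number, coloured by group. Lhx6 and Sst are lowest together in WT EtOH library 4 and r is 0.70, and Dlx1 and Dlx5 are lowest together in KO EtOH library 12, where Dlx5 has 0 counts, and r is 0.94.

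Of the genes, 5 have more than 1 RefSeq transcript, and the authors' quantification divided their counts in unequal ways. For Dlx5, transcript NM_198854 received 94.96% of the count in WT saline libraries 1 and 13 and at most 17.3% in every other library with a count. For Vip, NM_001313969 received 52.4% in WT saline library 3, where the median library had 10.8%. NM_001083127 of Lhx6 received between 50.7% and 78.2%. The summed counts per gene do not depend on this division. The summed RPKM can depend on it, since each transcript is scaled to its own length. Dlx1 (chr2:71529445-71533981) overlaps Dlx1as (chr2:71530638-71537891) on mm10, and since the use of strand in counting is not stated, reads of the 2 cannot be told apart.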

How the data were processed

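Stranded total RNA-Seq of somatosensory cortex was analysed in 12 libraries, 3 per group, and groups and library numbers came from the sample labels. The authors mapped single-end reads to mm10 (Bowtie2, run through TopHat) and then used Partek Flow to count reads per RefSeq transcript. Its version is not given in the sources used here. The deposited estimated counts are unscaled and hold fractions, since the authors' software divided shared reads. The deposited RPKM values were normalized by the authors and are used here to compare levels between genes. Laser microdissection was used for some of the study's samples and a hole punch for the others, and the method of each library was not assigned here. With all 12 libraries in the fit, the p-values measure the spread between the 3 libraries of a group, pooled for each gene over all groups. A contrast within KO mice therefore also carries the spread of the WT libraries, and a contrast within WT mice that of the KO libraries.

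After summing per symbol and rounding, edgeR 4.0.16 under R 4.3.3 was run with TMM factors, its default filter on low counts and quasi-likelihood tests, each group having 1 mean. Two-sided tests of 7 contrasts were adjusted by Benjamini-Hochberg over 14739 genes, and each standard error (SE) was the log2 fold change divided by the root of F. Log2 CPM used a prior count of 2. Summaries and figures used Python 3.11.15 with numpy 2.4.6, pandas 2.3.3 and matplotlib 3.10.9. The alternatives were DESeq2 1.42.0, library size without TMM factors, 2 other count filters (at least 1 count in any library, at least 10 in every library), limma 3.58.1 on log2 RPKM with 1 or 0.1 added, the letter of the library name as a covariate or the 2 L-named libraries left out, only the groups compared, each library left out in turn, the length and GC trend of each library removed (by offsets), the most abundant transcript alone, and a fit without 3 libraries added after seeing the data. The scripts were tested on simulated data.

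The members and lists were chosen with earlier results of these data known. The genes named were the 10 markers in every contrast, the genes most like them in pattern, and from each of the other lists up to 6 per contrast with an unadjusted p under 0.05, smallest first. Depth was 719735 to 17066392 counts per library, and the limits on a count of 0 cover counting error only.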

Additional observations from a re-analysis of the deposited data

Results flagged for a closer look

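For Pvalb the test of a difference in the ethanol effect between genotypes had an unadjusted p under 0.05, as for 15.2% of all genes. The interaction was 2.91 on the log2 scale (KO effect minus WT effect, adjusted p = 0.292 in edgeR), so it did not pass the adjusted threshold, and it was 1.60 without KO EtOH library 18. Ethanol over saline was 2.15 in KO mice and -0.76 in WT mice on the log2 scale, at 1 to 28 counts per library. In KO mice 2 of 3 ethanol libraries were above all saline libraries, and library 10 (0.237 CPM) was within the range of KO saline.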

How the results depend on the processing

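None of the 10 genes had an adjusted p under 0.05 in any of the 7 contrasts, under any alternative but one, the fit without WT EtOH library 4 and the 2 L-named libraries. There the number was 1 (Lhx6) in WT EtOH versus WT saline and 2 (Lhx6 at 1.33 and Pvalb at -2.58 on the log2 scale) in KO saline versus WT saline. The cause of the changes below was not tested.

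The number of genes with an unadjusted p under 0.05 moved as follows. Percentages are the share of all genes tested in the same edgeR fit. In WT EtOH versus WT saline (0, against 18.3%) it was 1 without the L-named libraries (37.3%) and 2 without the 3 libraries (32.0%). In KO EtOH versus KO saline (2, against 3.15%) it was 1 without TMM factors, with limma on log2(RPKM + 1) and on log2(RPKM + 0.1), and with the letter as a covariate. It was also 1 with only the groups compared and with the length and GC trends removed. The same held with at least 10 counts in every library, which removes Pvalb, Dlx1, Dlx2, Dlx5 and Htr3a. Without the L-named libraries (4.03%) and without the 3 libraries (4.78%) it was 1 too. In KO saline versus WT saline (1, against 19.6%) it was 0 without TMM factors, with at least 10 counts, with only the groups compared and with the trends removed. It was 2 without the L-named libraries (39.2%) and without the 3 libraries (41.9%). In KO EtOH versus WT EtOH (0, against 3.24%) it was 1 in DESeq2 and with at least 1 count in any library. For Treatment (0, against 7.09%) it was 1 without the L-named libraries (30.6%) and 3 without the 3 libraries (27.0%). For Genotype (0, against 7.67%) it was 1 with limma on log2(RPKM + 1) and without the L-named libraries (34.2%), and 2 without the 3 libraries (36.1%). For the interaction (1, against 15.2%) it was 0 without TMM factors, with at least 10 counts and with the trends removed, and 2 without the 3 libraries (19.4%). Leaving out each library in turn gave 0 to 0 in WT EtOH versus WT saline, 0 to 2 in KO EtOH versus KO saline, KO saline versus WT saline and the interaction, and 0 to 1 in the other contrasts. On the deposited RPKM the groups did not overlap for 2 genes in KO EtOH versus KO saline (1 on CPM) and for 1 in KO EtOH versus WT EtOH (0 on CPM). The share of all genes without overlap was 10.8% and 12.7% on CPM and was not taken on RPKM.

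The signs of several small log2 fold changes turned, and of the turned values Lhx6 at 1.33 had an adjusted p under 0.05. In WT EtOH versus WT saline, where Dlx2, Dlx5, Htr3a and Pvalb also turned under at least 1 alternative, Lhx6 was 0.90 without the L-named libraries, 0.61 with the letter as a covariate and 1.33 without the 3 libraries. Sst was 0.17 without TMM factors, 0.44 with limma on either RPKM scale, 0.52 without the L-named libraries, 0.67 with the letter, 0.28 with the trends removed and 1.01 without the 3 libraries. Vip was 0.24 without TMM factors and 0.092 with the trends removed. Reln was -0.17, -0.15 and -0.89 without the L-named libraries, with the letter and with the trends removed. In KO EtOH versus KO saline, Dlx1 was -0.43 and -0.57 with limma on log2(RPKM + 1) and log2(RPKM + 0.1), and -0.0030 with the trends removed. In KO saline versus WT saline, Lhx6 was -0.018 with the trends removed and -0.27 for its most abundant transcript. The Sst interaction was -0.36 without the 3 libraries. Leaving out each library in turn gave ranges in WT EtOH versus WT saline of -0.76 to 0.92 for Lhx6, -0.66 to 0.56 for Sst, -1.10 to 0.56 for Npy, -0.95 to 0.21 for Vip and -0.20 to 0.61 for Reln. The range was -0.30 to 0.51 for Dlx1 in KO EtOH versus KO saline and -0.30 to 1.33 for Lhx6 in KO saline versus WT saline. Pvalb kept its sign in the latter pair of contrasts (0.79 to 2.85 in KO EtOH versus KO saline, -2.59 to -1.78 in KO saline versus WT saline).

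No paired analysis was possible because the groups share no library number. Depth limits Pvalb, Dlx5 and Htr3a most, since KO EtOH library 12 had 719735 counts in all and a count of 0 there allows up to 5.01 CPM.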
